A study of Mus musculus with 48 samples.

Results

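The 9 genes described here encode the enzymes and cofactors that write, maintain and remove DNA methylation in the mouse: *Dnmt1*, *Dnmt3a*, *Dnmt3b*, *Dnmt3l*, *Uhrf1*, *Tet1*, *Tet2*, *Tet3* and *Tdg*. ATAC-seq peaks were assigned to a gene when any part of them lay within 50 kb of one of its RefSeq start sites on mm10. Of the peaks in each list, 136 of 234758 with SB-431542, 133 of 233336 after 1 h Activin, 132 of 209212 after 8 h Activin and 133 of 220004 in untreated cells met this rule. Joined where they overlapped by at least 1 bp, the peaks of the 4 lists gave 155 regions at these genes, of 287329 in all.

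The cells were P19, a line from a mouse embryonic teratoma, which the authors profiled in 4 signalling states as 2 biological replicates with 100000 cells per reaction. In the SB-431542 condition the cells were kept overnight in 10 µM SB-431542, which blocks the receptor kinases that NODAL and Activin act through, washed, and put back in the inhibitor for 1 h. For 1 h Activin and 8 h Activin, the inhibitor was likewise washed out after the night and replaced by 20 ng/ml Activin for 1 h or 8 h. Untreated cells received neither agent and signal through the NODAL and GDF3 that they secrete. All 4 states were the same cell line, and the SB-431542 and Activin states shared the night in the inhibitor, which untreated cells did not have.

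The authors merged the replicates of a state before calling broad peaks, so each state is 1 list and no value has a replicate error. No test between states could be made, and a difference described here has no replicate check. The strength of a peak is its fold enrichment, its mean pileup of reads as a ratio to the background estimated around it in the same list. The lists carry no read counts. The lowest local background estimated in a list, which follows its depth, was 92.6% of that with SB-431542 after 1 h Activin, 79.0% after 8 h Activin and 84.8% in untreated cells, so a weak peak could be missed more easily in these states. To put the lists on 1 scale, the highest fold enrichment of each region with a peak in all 4 lists, called a shared region, was turned into a percentile among the 162505 shared regions of the series, list by list. A shift is the percentile in a state minus that with SB-431542, and shifts of more than 10 points were counted as higher or lower. On this scale an equal change in fold enrichment moves a strong peak by fewer points than a weaker one. A ratio to SB-431542 of 0.84 went with -1.99 points at a *Dnmt1* region that had 7.05 with SB-431542. The same ratio went with -17.9 points at another that had 2.37. A peak over a start site in every list did not mark cell identity sharply, since 7 of 8 pluripotency genes had one, all but *Dppa5a*, and so did 13 of 18 genes of other cell types, while *Alb*, *Ttr*, *Myog* and *Des* were among those without one.

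DNA methylation is written on cytosines of CpG dinucleotides. *Dnmt3a* and *Dnmt3b* encode the enzymes that methylate unmodified DNA, and *Dnmt3l* a relative that lacks catalytic activity and stimulates them in germ cells and early embryos. *Dnmt1* encodes the enzyme that copies the pattern onto new strands at replication, guided by the protein of *Uhrf1*, which binds hemimethylated CpGs. The TET enzymes oxidise methylated cytosine, and TDG excises the most oxidised products, which base excision repair then replaces with cytosine. Pluripotent cells are known for high levels of *Dnmt3b*, *Dnmt3l* and *Tet1*, and for a short form of DNMT3A that starts from a promoter inside the gene.

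RefSeq lists 18 start sites for the 9 genes, of which 16 lay in a region with a peak in all 4 lists, forming 12 promoter regions, and 2 lay in no region. The promoter regions that shifted by more than 10 points were all at genes with alternative start sites. The 250 bases upstream of 7 of the 18 start sites are printed here from GRCm38 (mm10), 5′ to 3′ on the strand of the gene, with CpG dinucleotides in capitals, because CpGs are the substrate of these enzymes and their number differs between the start sites of 1 gene. The long form of *Dnmt3a* (908 amino acids) starts at 3806980 on chromosome 12, and the short form (689 amino acids) starts 84.8 kb further on, at 3891744 inside the gene.
Dnmt3a, long form, chr12:3806730-3806979, plus strand: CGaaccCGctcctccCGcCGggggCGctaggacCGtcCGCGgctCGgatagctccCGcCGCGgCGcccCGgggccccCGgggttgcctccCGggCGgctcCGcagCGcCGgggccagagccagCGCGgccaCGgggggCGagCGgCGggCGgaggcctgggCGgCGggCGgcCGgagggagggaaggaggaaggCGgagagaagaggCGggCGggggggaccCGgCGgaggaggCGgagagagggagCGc
Dnmt3a, short form, chr12:3891494-3891743, plus strand: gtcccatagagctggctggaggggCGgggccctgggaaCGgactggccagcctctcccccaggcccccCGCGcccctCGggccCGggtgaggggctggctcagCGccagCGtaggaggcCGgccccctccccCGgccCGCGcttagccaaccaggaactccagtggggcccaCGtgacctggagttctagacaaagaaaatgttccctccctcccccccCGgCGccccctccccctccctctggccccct
*Tet3* has an upstream start site at 83456392 on chromosome 6 (1803 amino acids) and an internal one 14.7 kb downstream, at 83441678 (1668 amino acids).
Tet3, upstream start, chr6:83456393-83456642, minus strand: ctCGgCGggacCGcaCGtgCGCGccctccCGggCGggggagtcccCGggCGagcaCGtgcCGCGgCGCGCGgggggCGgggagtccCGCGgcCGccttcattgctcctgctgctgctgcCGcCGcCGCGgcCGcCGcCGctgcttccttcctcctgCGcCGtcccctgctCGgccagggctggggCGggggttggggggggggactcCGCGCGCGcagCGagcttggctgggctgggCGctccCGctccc
Tet3, internal start, chr6:83441679-83441928, minus strand: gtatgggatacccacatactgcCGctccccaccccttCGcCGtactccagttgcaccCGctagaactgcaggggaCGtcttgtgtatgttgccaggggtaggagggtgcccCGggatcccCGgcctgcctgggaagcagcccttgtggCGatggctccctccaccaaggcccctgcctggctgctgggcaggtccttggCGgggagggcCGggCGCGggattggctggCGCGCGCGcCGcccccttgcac
Of these internal bases, 174 lie in an exon of the noncoding gene *B230319C09Rik*. *Dnmt1* starts at 20952979 on chromosome 9 for its forms of 1619 to 1627 amino acids and 6.91 kb upstream, at 20959888, for a form of 1501 amino acids. Another start, at 20952623 in the same promoter region as 20952979, gives a form of 1502 amino acids and is not printed. The start site of *Dnmt3l* at 78049842 on chromosome 10 is shown with them because its percentile shifted most among the promoters.
Dnmt1, forms of 1619 to 1627 amino acids, chr9:20952980-20953229, minus strand: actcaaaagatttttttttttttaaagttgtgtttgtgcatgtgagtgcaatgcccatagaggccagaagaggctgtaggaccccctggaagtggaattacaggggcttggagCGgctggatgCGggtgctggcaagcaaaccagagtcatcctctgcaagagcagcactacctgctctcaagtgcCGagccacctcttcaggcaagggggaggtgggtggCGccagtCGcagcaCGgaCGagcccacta
Dnmt1, form of 1501 amino acids, chr9:20959889-20960138, minus strand: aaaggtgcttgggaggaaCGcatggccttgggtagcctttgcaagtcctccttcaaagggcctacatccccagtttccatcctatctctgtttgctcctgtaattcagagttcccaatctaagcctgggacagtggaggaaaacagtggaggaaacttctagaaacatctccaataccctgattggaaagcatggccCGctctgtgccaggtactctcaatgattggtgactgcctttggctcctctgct
Dnmt3l, chr10:78049592-78049841, plus strand: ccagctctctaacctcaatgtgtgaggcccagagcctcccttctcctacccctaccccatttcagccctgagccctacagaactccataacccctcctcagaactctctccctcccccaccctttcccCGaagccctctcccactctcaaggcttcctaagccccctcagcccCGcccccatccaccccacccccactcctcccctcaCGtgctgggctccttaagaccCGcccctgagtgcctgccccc

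Counted over 300 bases, from 250 before to 50 after the start, the long form of *Dnmt3a* and the upstream start of *Tet3* each held 46 CpGs, more than 98.4% of the 32851 RefSeq promoters did. The internal start of *Dnmt3a* held 18 and that of *Tet3* 22, against a median of 7 over all promoters. *Tet2* was the richest of the members with 57. The upstream start of *Dnmt1* held 2 CpGs, above only 14.1% of promoters, while its start at 20952623 held 33, above 91.4%. The start sites of *Dnmt3l* at 78049842 and 78055335 held 4 and 3. Both strands of these windows were searched for exact letters of 7 motifs. TTTNGCGC, the E2F letters, was found at *Dnmt1* and *Uhrf1*, in 2 of 18 windows against 1.38% of all promoters. The *Dnmt1* window with these letters was that of the start at 20952623, and the *Uhrf1* window also held 33 CpGs. GGGCGG, the letters of SP and KLF factors, was found in 14 of 18 windows (35.7% of all promoters), CCAAT of NF-Y in 6 (37.4%), and GCATGCGC of NRF1 in 2 (2.71%), both of them *Dnmt1* windows. AGAC, the short SMAD letters, was in 12 of 18 windows and in 88.0% of all promoters, and neither GTAAACA of FOX factors (3.65%) nor AATNCACA of FOXH1 (3.60%) was in any of them. The windows of 1 gene partly overlap, and a match is only a match of letters. The shares over all promoters were not matched for number of CpGs, and TTTNGCGC, GGGCGG and GCATGCGC each hold a CpG.

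Most promoters of the methylation machinery kept their place in all 4 states. In values given from here on in the order inhibitor, 1 h, 8 h and untreated, with shifts for the last 3, the promoter region of *Dnmt1* (chr9:20951671-20954241) had fold enrichments of 5.61, 5.27, 5.33 and 5.09, and its shifts lay between -1.27 and 0.30 points. *Tdg*, whose glycosylase ends the demethylation pathway, had 5.35, 5.29, 5.04 and 5.07. *Tet2* had 4.77, 4.32, 4.55 and 4.43 over its CpG-rich start. These 3 were the strongest promoters of the group, and none of them shifted by more than 1.97 points in any state. Strong peaks move by few points on this scale, so whether these promoters changed less than weaker ones was not tested.

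*Uhrf1* had 4.06, 4.18, 3.80 and 4.05 over a region that holds both of its start sites, with a largest shift of 5.48 points after 1 h Activin. *Dnmt3b*, the methyltransferase most typical of pluripotent cells, had 3.44, 3.20, 3.27 and 3.34. *Tet1* had 2.79, 2.73, 2.68 and 2.52, and its largest shift was -7.29 points in untreated cells. In all, 6 genes, *Dnmt1*, *Dnmt3b*, *Uhrf1*, *Tet1*, *Tet2* and *Tdg*, had no promoter region past 10 points in any state, and *Dnmt3a*, *Dnmt3l* and *Tet3* had at least 1.

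**Figure D1:**
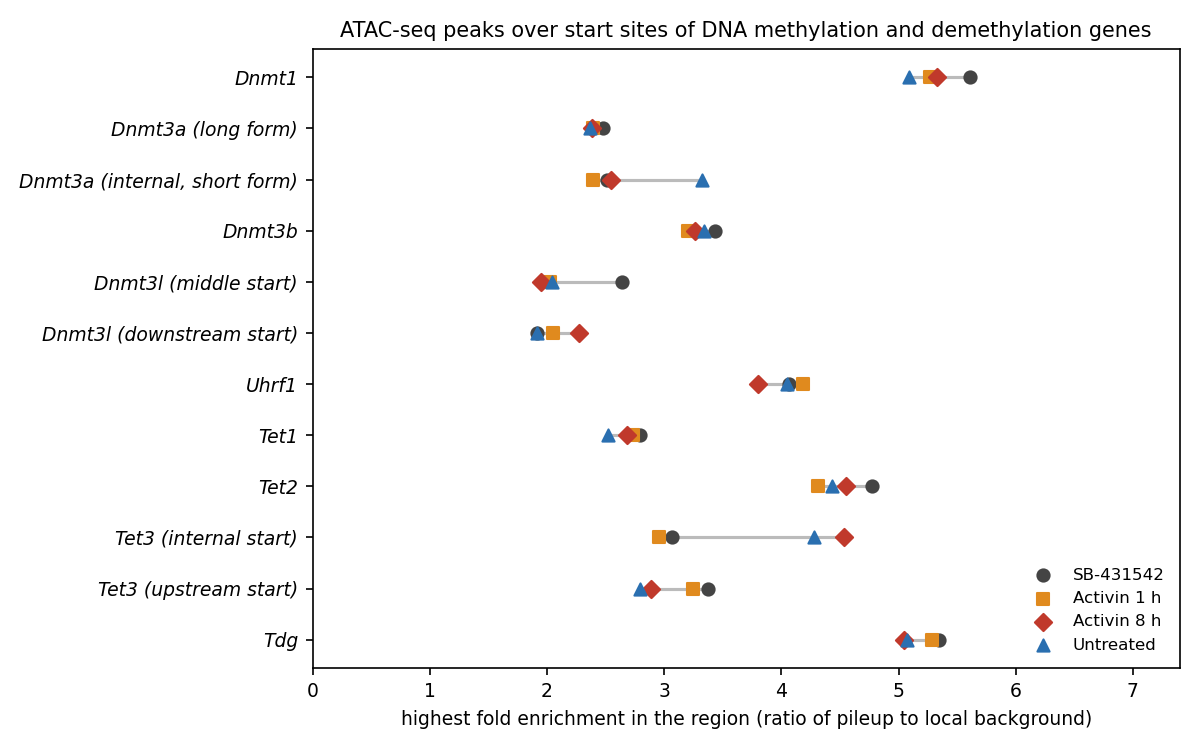
Highest fold enrichment of the ATAC-seq peaks in each of the 12 promoter regions, 1 row per region. The horizontal axis is the ratio of pileup to local background, from 0. A circle, square, diamond and triangle mark SB-431542, 1 h, 8 h and untreated, with a grey line over their range. Each point is 1 merged list with no error. In the short-form *Dnmt3a* row the 8 h and untreated points are from peaks beside the start site. The points of *Dnmt1* lie between 5.09 and 5.61, while those of the internal *Tet3* start fall into 2.96 to 3.06 and 4.28 to 4.53.

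Of the 12 promoter regions, 1 was higher and 1 lower after 1 h Activin, 2 were higher and 1 lower after 8 h Activin, and 2 each way in untreated cells. Over all 15541 shared promoter regions of the series, 3.11% were higher and 2.29% lower after 1 h Activin, 3.32% and 6.51% after 8 h Activin, and 3.64% and 7.39% in untreated cells. With 12 regions, 1 region is a large share, so these counts are given with their members and not as rates.

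At *Tet3* the start sites had shifts of opposite sign in untreated cells and after 8 h Activin. At the upstream start (chr6:83455151-83457695) the fold enrichment was 3.38, 3.24, 2.89 and 2.80, with shifts of 2.47, -9.43 and -11.9 points. At the internal start (chr6:83440144-83443872) it was 3.06, 2.96, 4.53 and 4.28, with shifts of 3.10, 25.1 and 23.8 points. The internal start was past 10 points upward after 8 h Activin and in untreated cells, the upstream start was past 10 points downward in untreated cells and just inside after 8 h, and 1 h Activin was close to SB-431542 at both.

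The peak over the internal *Tet3* start also changed in shape. It was 1 peak of 3729 bp with SB-431542 and 3683 bp after 1 h Activin, running with SB-431542 from -2194 to 1534 bp of the start site. After 8 h Activin it was a peak of 1299 bp that covered the start site plus a separate one of 325 bp, and in untreated cells a peak of 1733 bp plus one of 326 bp. The estimated local background under it was 149, 115, 75.3 and 84.8 in reads of pileup, and its estimated pileup, relative to the median of all shared regions, differed from SB-431542 by -0.03 and -0.04 on the log2 scale after 8 h Activin and in untreated cells. By these estimates the higher fold enrichment came with a narrower peak on a lower background and without a higher pileup. The estimates derive from means over peaks of different width, which cover different bases, and the reason for the change was not tested. Ranked by estimated pileup, the region shifted by 0.274 and 1.04 points in the same states. The region also holds the start site of *B230319C09Rik*, whose accessibility cannot be told apart from that of *Tet3*.

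At the short form of *Dnmt3a* the region (chr12:3889513-3892972) had 2.51, 2.39, 2.55 and 3.32, with a shift of 24.0 points in untreated cells. The untreated value belonged to a peak that did not cover the start site but lay upstream, from -2048 to -1328 bp. The value after 8 h Activin was likewise from an upstream peak, from -1989 to -1340 bp. The peak that covered the start site had 2.51, 2.39, 2.28 and 2.18, so it was lowest in untreated cells. Ranked by this covering peak, the shift in untreated cells was -13.6 points. After 1 h Activin both parts were 1 peak of 3242 bp. The long form of *Dnmt3a* (chr12:3805678-3809078) had 2.48, 2.40, 2.38 and 2.36 over a peak of 3138 to 3365 bp, and no state shifted it by more than 3.44 points in either direction.

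The start sites of *Dnmt3l* shifted in opposite directions after 1 h and 8 h Activin. The region at 78049842 (chr10:78049246-78050135), which also holds a start site at 78049959, had 2.64, 2.02, 1.94 and 2.04 with shifts of -21.6, -31.0 and -25.0 points, and its -log10 q went from 13.6 to 4.78, 3.38 and 4.52. It was strongest with SB-431542 and past 10 points lower in all other states, already after 1 h, and only with SB-431542 and after 8 h Activin did the peak reach 78049959. The start at 78055335, which gives a form of 126 amino acids, had 1.92, 2.05, 2.28 and 1.91 (chr10:78054875-78055690), with shifts of 12.4, 19.6 and -1.06 points. Both are weak peaks, and their estimated pileup relative to all shared regions differed from SB-431542 by -0.42, -0.59 and -0.49 at the first and by 0.25, 0.33 and 0.07 at the second, on the log2 scale.

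Start sites without any peak were found at 2 genes. The upstream start of *Dnmt1* printed above lay 3330 bp from the nearest region, chr9:20963218-20963536, which had a peak of 2.09 after 8 h Activin and 1.87 in untreated cells and none in the other lists. The first start of *Dnmt3l*, 78042287, lay 242 bp from a region that covers a start site of *Aire* (chr10:78042529-78044086), with 4.75, 3.70, 3.84 and 4.62.

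Away from the start sites the members had more regions and wider differences. The counts that follow are for all regions in the window, those over start sites included. Of the 155 regions, 111 were shared, which is 71.6% against 56.6% of all regions of the series. After 1 h Activin, 8 of the 111 shared regions (7.21%) were higher and 9 (8.11%) lower, where all shared regions gave 11.3% and 12.1%. After 8 h Activin 19 (17.1%) were higher and 19 lower, against 18.7% and 18.5%, and for untreated cells 21 (18.9%) shifted each way, against 19.9% and 18.8%. The shares of the members were thus near or below those of the series in each state.

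With the peaks as deposited, gains and losses were also no more frequent than in the series. Against SB-431542, 5 of 155 regions (3.23%) were gained after 1 h Activin, 9 (5.81%) after 8 h Activin and 15 (9.68%) in untreated cells, where the series gave 9.48%, 8.12% and 10.6%. Lost regions numbered 9 (5.81%), 17 (11.0%) and 20 (12.9%), where the series gave 9.86%, 17.1% and 15.6%. These counts depend on how peaks are matched: with a 50% overlap 9, 14 and 23 regions were gained and 15 were lost after 1 h Activin, and with peaks of -log10 q of at least 5 only, 2 were gained and 19 lost after 1 h. The shares of the series were not recomputed for these alternatives, so the comparison with the series holds for the peaks as deposited only. The list after 8 h Activin is the shallowest, and its losses cannot be told apart from its lower depth by number alone. The genes differed in where their shifts lay, as the plot of shifts by gene shows.

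**Figure D2:**
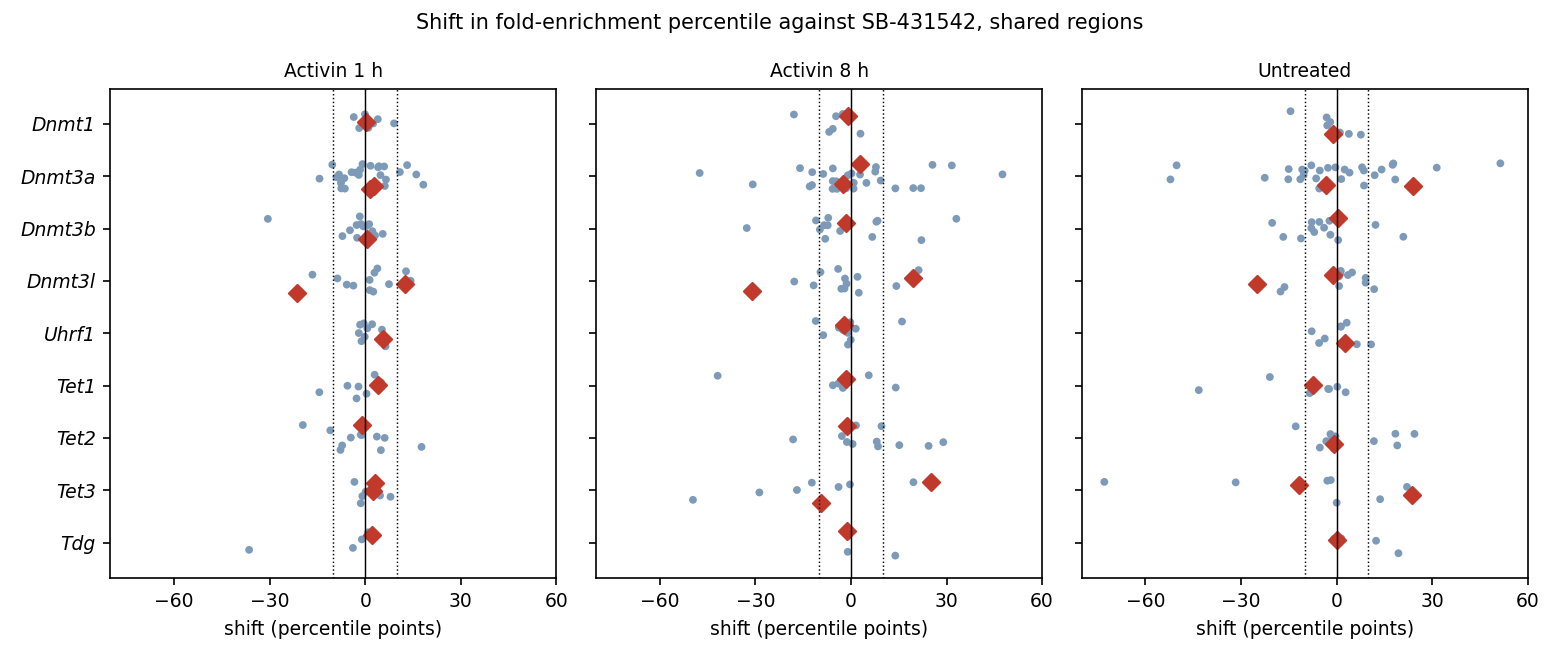
Shift in percentile of the highest fold enrichment against SB-431542 (horizontal axes, percentile points; dotted lines at 10 points each way) for the 111 shared regions, by gene and state; red diamonds are regions over a start site of that gene, blue points the others, and the vertical scatter within a row only separates points. *Tet3* has the lowest point of all, -72.9 in untreated cells, and *Dnmt1* has no point above 10 in any state.

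*Tet3* had the fewest shared regions in proportion, 9 of 19 (47.4%), where the series had 56.6%. With SB-431542 and after 1 h Activin 18 and 17 of its regions had a peak, but only 11 after 8 h Activin and 10 in untreated cells. Of the 9 member regions with a peak with SB-431542 and after 1 h Activin alone, 6 were at *Tet3*, 4 of them in its introns and 2 upstream of it, and their -log10 q with SB-431542 ranged from 2.00 to 16.3. Over all members this pattern made up 5.81% of regions, near the 6.50% of the series. In all, 8 of the 19 *Tet3* regions were lost after 8 h Activin and 8 in untreated cells, of 17 and 20 lost over all members. Over the series 17.1% and 15.6% of regions were lost in these states.

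The regions of *Tet3* that stayed were not all lower. In its intron, chr6:83423590-83424047, 17.9 kb downstream of the internal start, had 4.76, 4.28, 2.30 and 1.89, with shifts of -1.43, -49.6 and -72.9 points, and -log10 q values of 98.5, 59.3, 12.0 and 4.88. The next region, also intronic, chr6:83421488-83422660, had 3.59, 3.50, 5.18 and 5.37, with shifts of 3.30, 19.6 and 22.1 points. These adjacent regions went in opposite directions. Their estimated pileups relative to all shared regions differed from SB-431542 by -1.12 and -1.79 for the first and by 0.85 and 0.50 for the second, on the log2 scale, after 8 h Activin and in untreated cells.

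Closer to the internal start, chr6:83434912-83436145, 6.15 kb downstream of the internal start, had 4.85, 4.17, 2.92 and 2.81 and shifted by -28.7 points after 8 h Activin and -31.7 in untreated cells. Between them, chr6:83427414-83428032 had 3.14, 3.30 and 1.93 and no peak in untreated cells, the lost *Tet3* region with the highest -log10 q (27.4). The gained one with the highest, chr6:83418571-83418786, had 1.71 after 8 h Activin alone and a -log10 q of 4.14. The strongest region near the gene, over the start of its neighbour *Dguok* (chr6:83505226-83507429), stayed at 7.04, 6.63, 6.85 and 6.68.

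**Figure D3:**
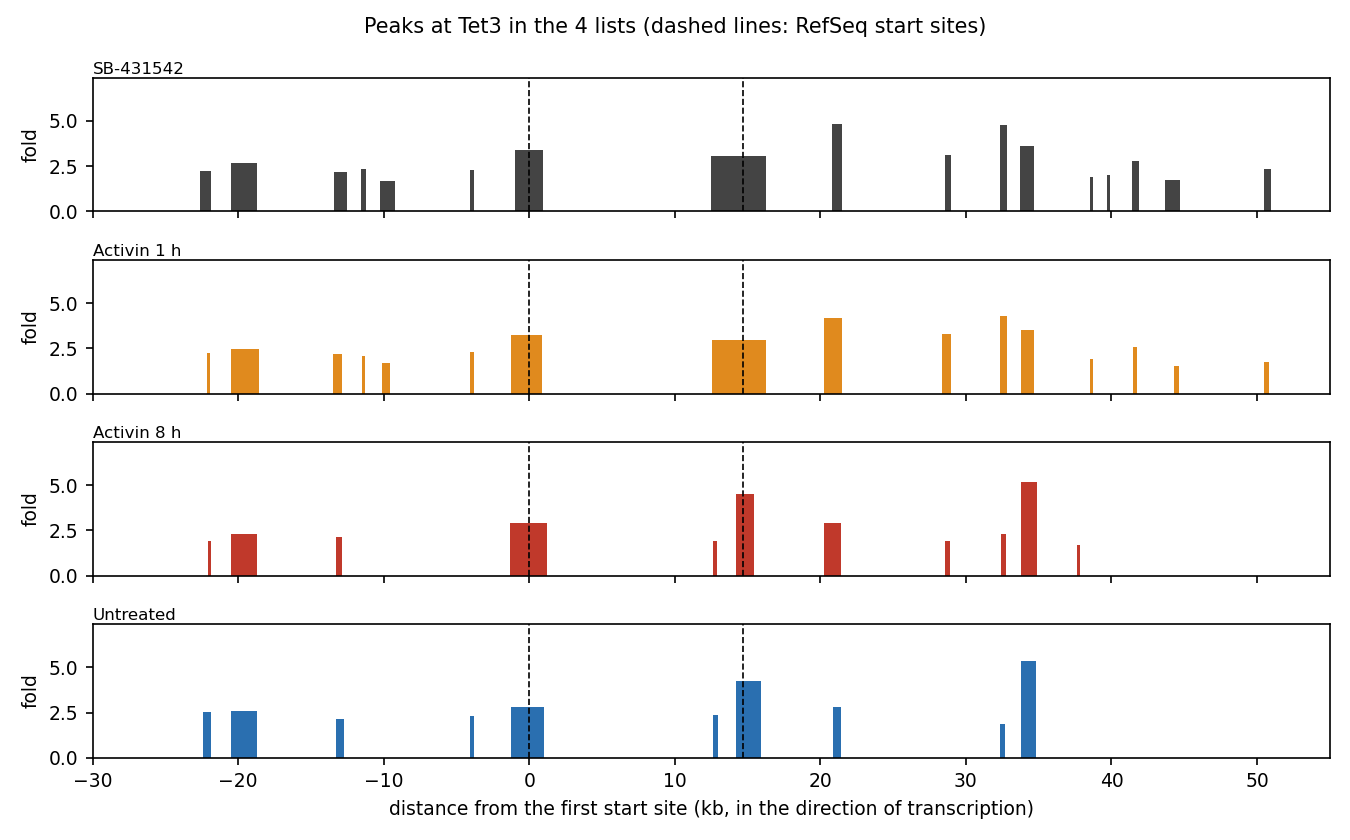
Peaks at *Tet3* in the 4 lists, 1 panel per state, by distance from its upstream start site (horizontal axis, kb in the direction of transcription) with the height of each bar its fold enrichment (from 0) and its width the width of the peak; dashed lines mark both start sites. The broad block at the internal start, 3729 and 3683 bp wide in the upper panels, is narrower and taller in the lower ones, and the bars farthest downstream in the upper panels are absent from the lower ones.

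The central 300 bases of 4 regions at *Tet3*, *Dnmt3a* and *Tet1*, namely the region with the largest shift at each of these genes and the *Tet3* region next to it that went the other way, are printed from the plus strand of GRCm38 (mm10) so that they can be compared, with matches to any of the 7 motifs, on either strand, in capitals. None of these bases is exonic in RefSeq.
Tet3, lower after 8 h Activin and in untreated cells, chr6:83423669-83423968: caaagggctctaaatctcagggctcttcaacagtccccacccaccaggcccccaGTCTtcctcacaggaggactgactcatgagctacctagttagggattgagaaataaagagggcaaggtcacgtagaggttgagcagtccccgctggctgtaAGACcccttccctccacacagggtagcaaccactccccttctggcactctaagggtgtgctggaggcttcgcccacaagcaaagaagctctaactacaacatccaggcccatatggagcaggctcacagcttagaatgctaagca
Tet3, higher in the same states, chr6:83421925-83422224: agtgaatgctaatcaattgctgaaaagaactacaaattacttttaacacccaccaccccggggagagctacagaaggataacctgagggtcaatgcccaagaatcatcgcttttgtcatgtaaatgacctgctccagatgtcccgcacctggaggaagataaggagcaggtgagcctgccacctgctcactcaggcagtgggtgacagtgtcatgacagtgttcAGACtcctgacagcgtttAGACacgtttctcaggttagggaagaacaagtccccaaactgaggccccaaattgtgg
Dnmt3a, lower in the same states as the first, chr12:3877947-3878246: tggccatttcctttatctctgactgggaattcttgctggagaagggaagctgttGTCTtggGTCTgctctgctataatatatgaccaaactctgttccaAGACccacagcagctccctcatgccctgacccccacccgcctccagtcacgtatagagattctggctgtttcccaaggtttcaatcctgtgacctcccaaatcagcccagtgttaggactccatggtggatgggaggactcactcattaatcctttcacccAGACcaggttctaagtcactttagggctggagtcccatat
Tet1, lower after 8 h Activin and in untreated cells, chr10:62902258-62902557: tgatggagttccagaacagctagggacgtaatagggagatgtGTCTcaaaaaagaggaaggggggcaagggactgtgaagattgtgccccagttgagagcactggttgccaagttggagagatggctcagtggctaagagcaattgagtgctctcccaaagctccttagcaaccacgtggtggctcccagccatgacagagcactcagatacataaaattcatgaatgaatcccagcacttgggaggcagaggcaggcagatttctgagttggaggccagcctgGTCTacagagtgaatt
All capitals in these 4 windows are AGAC or its complement GTCT. Its letters were present in 90.8% of the central windows of all shared regions, and the longer FOX and FOXH1 letters, present in 4.30% and 5.43%, were not found in them.

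*Dnmt3a* had the most regions, 34, of which 30 were shared. Its intronic region at chr12:3877527-3878666, 13.6 kb upstream of the short-form start, had 5.03, 3.85, 2.90 and 2.30, with shifts of -9.07, -30.8 and -52.1 points. The next region, chr12:3880554-3881737, had 1.58, 1.70, 2.57 and 2.20, with shifts of 4.75, 47.6 and 31.4 points. These neighbours, both between the start sites of the long and the short form, were again opposite. The first had its highest values with SB-431542 and after 1 h Activin, and the second its lowest. Relative to all shared regions, the estimated pileup of the first differed by -0.87 and -1.36 and that of the second by 1.10 and 0.88 on the log2 scale, after 8 h Activin and in untreated cells.

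Further out at *Dnmt3a*, chr12:3936523-3936999, an intergenic region beyond the gene, had 2.84, 2.44, 1.78 and 1.73, with shifts of -47.5 and -50.2 points after 8 h Activin and in untreated cells. In an intron of *Dtnb*, 45.5 kb upstream of the long-form start, chr12:3761183-3761837 had 1.86, 1.98, 2.48 and 3.15, and its shift of 51.4 points in untreated cells was the largest upward shift of any member region. The strongest region, chr12:3791756-3792653, 14.8 kb upstream of the long form, stayed at 5.08, 4.94, 5.10 and 4.99. Of the 34 regions, 1 was gained after 8 h Activin and 1 in untreated cells, where the series gave 8.12% and 10.6%. The latter was chr12:3900819-3901111 with 1.73. The lost region with the highest -log10 q, 6.30, was chr12:3913897-3914817 with 2.05, 1.63 and 2.07 and no peak in untreated cells.

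**Figure D4:**
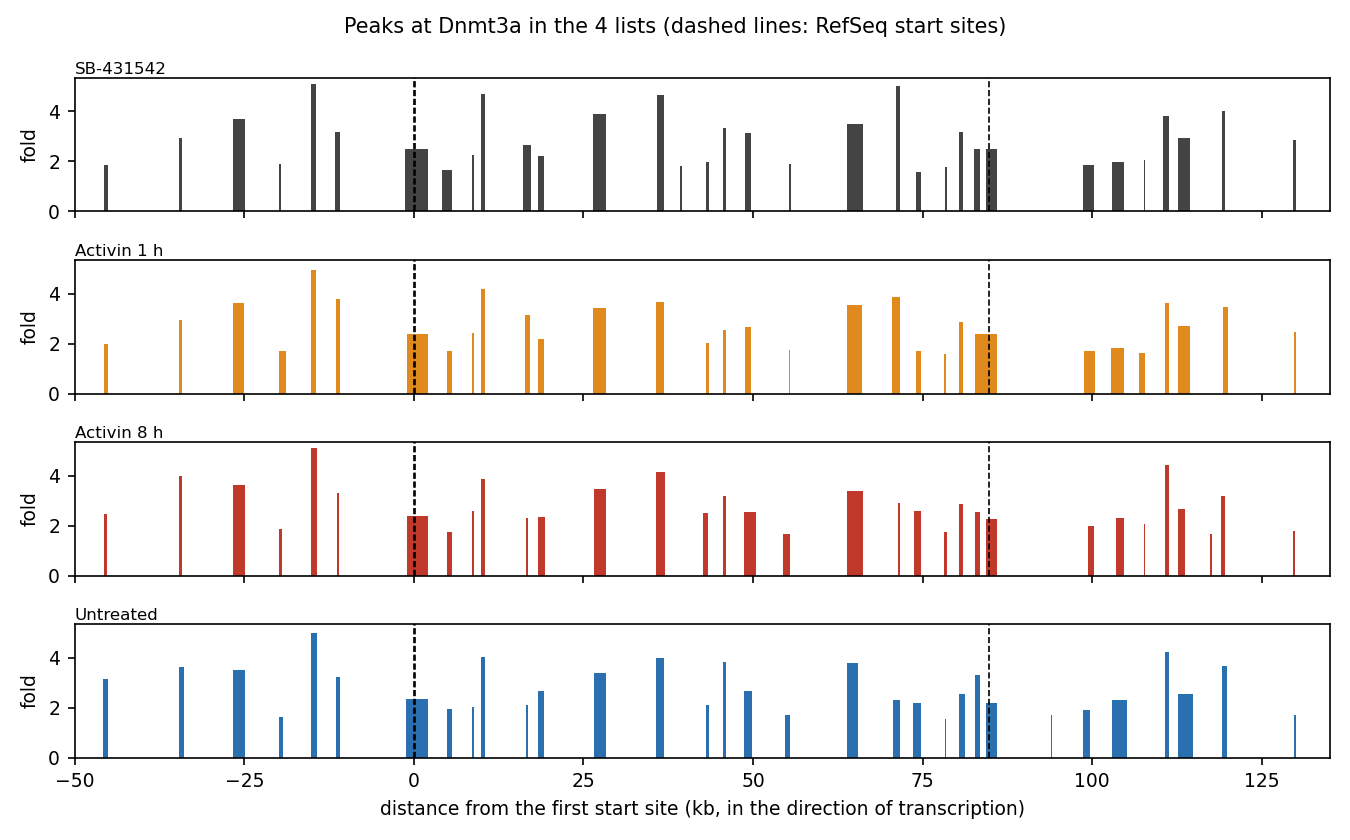
Peaks at *Dnmt3a* in the 4 lists, drawn as for *Tet3*, by distance from the long-form start site (horizontal axis, kb; height of a bar, fold enrichment from 0); dashed lines mark the start sites of the long and the short form. The bar near 70 kb is among the tallest with SB-431542 at 5.03 and stands at 2.30 in untreated cells, while the block at the long-form start stays between 2.36 and 2.48.

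At *Tet1* the promoter was stable but an intergenic region 15.1 kb upstream, chr10:62901564-62903250, had 4.07, 3.59, 2.29 and 2.27, with shifts of -2.75, -41.8 and -43.2 points. Its estimated pileup relative to all shared regions differed by -1.14 and -1.17 on the log2 scale in the last 2 states. An intronic region of *Tet1*, chr10:62874927-62875210, had 2.30, 2.27 and 2.63 in the last 3 lists and no peak under the inhibitor, and its -log10 q of up to 10.1 was the highest of the gained *Tet1* regions. The highest region, chr10:62865125-62866675, lay in an intron with 6.20, 6.95, 5.59 and 5.29. The largest upward shift, 14.1 points after 8 h Activin, was at chr10:62896724-62898415, with 2.19, 1.87, 2.49 and 2.23. The lost region with the highest -log10 q, 8.92, had 2.36 with SB-431542 alone and lay in an intron of *Slc25a16* (chr10:62932450-62932700).

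At *Tet2* the largest shift was upward. An intergenic region 13.1 kb upstream, chr3:133557203-133557779, had 2.27, 2.57, 3.14 and 2.94, with shifts of 17.6, 29.0 and 24.4 points, higher in all states than under the inhibitor. Another, chr3:133549918-133550167, 5.65 kb upstream, had a peak in untreated cells alone, of 2.55 with a -log10 q of 14.6. In an intron, 42.9 kb downstream of the start, chr3:133501237-133501683 had 3.69, 2.51 and 2.59 and no peak in untreated cells, and its -log10 q of 28.5 with SB-431542 was the highest of any lost member region. The largest downward shift, -19.6 points after 1 h Activin, was at an exon (chr3:133513526-133514546), with 2.03, 1.67, 2.17 and 2.03. The strongest region, intronic, stayed at 4.80, 4.32, 4.56 and 4.25 (chr3:133532774-133534673).

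*Tdg* had the fewest regions, 6. One of them, chr10:82594513-82594934, 35.1 kb upstream, had no peak with SB-431542 or after 1 h Activin and 2.70 and 3.24 in the other lists, with -log10 q values of 10.1 and 18.8. This was the gained member region with the highest -log10 q. In an intron of *Glt8d2*, chr10:82652362-82653273 had 2.65, 1.82, 3.10 and 3.32, lowest after 1 h Activin and highest in untreated cells. Its strongest region, over the start of *1190007I07Rik*, stayed at 6.23, 6.07, 5.89 and 5.66 (chr10:82622619-82623840).

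*Dnmt3b* had its largest shifts side by side at the far end of the window. Downstream of the gene, chr2:153694530-153695018 had 2.48, 2.46, 3.80 and 2.80, highest after 8 h Activin, with shifts of 5.47, 33.1 and 12.2 points. The adjacent chr2:153696013-153696336 had 3.19, 2.12, 2.16 and 2.44, with shifts of -30.6, -32.7 and -20.2 points, lower from 1 h on. No *Dnmt3b* region was lost, and 3 of 17 were gained, all in untreated cells, where the series gave 10.6%. The one with the highest -log10 q (6.96) was chr2:153605915-153606700 with 1.79. Its strongest neighbour, over the start of *Commd7*, had 6.29, 4.94, 5.44 and 5.48 (chr2:153632144-153633288).

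The maintenance genes *Dnmt1* and *Uhrf1* had 8 and 11 shared regions, too few for a share. A member start site was the nearest for only 4 of 14 regions at *Dnmt1* and 2 of 16 at *Uhrf1*. After 8 h Activin 0 were higher and 1 lower at *Dnmt1*, and 1 each way at *Uhrf1*. Over the series 18.7% were higher and 18.5% lower. Of the 8 at *Dnmt1*, 1 was past 10 points in any state, an intronic region (chr9:20943407-20944182) with 2.37, 2.20, 2.00 and 2.06 and a shift of -17.9 points after 8 h Activin. The largest upward shift at *Dnmt1* was 9.03 points (chr9:20901494-20902710, with 2.69, 2.80, 2.51 and 2.76). Its strongest region, intergenic, had 7.05, 7.22, 6.79 and 5.91 (chr9:20990610-20991556). Untreated cells had 4 gained *Dnmt1* regions of 14, where the series gave 10.6%. The one with the highest -log10 q (9.30) was chr9:20964794-20965091, with 2.55. The others were weak, with 1.70 to 1.96 in untreated cells and -log10 q values of 2.62 to 5.76. The region chr9:20998406-20998609 had a peak with SB-431542 alone, of 2.18.

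*Uhrf1* lost 2, 2 and 3 of its 16 regions and gained none, where the series lost 9.86%, 17.1% and 15.6%. The strongest, over the start of *Kdm4b*, had 6.43, 5.86, 7.03 and 7.20 (chr17:56325264-56326566). Its largest upward shift, 16.0 points after 8 h Activin, was at an exon of *Plin3* (chr17:56287248-56288393; 2.20, 2.07, 2.56 and 2.42), and its largest downward one, -11.1 points, in an intron of *Kdm4b* (chr17:56350115-56351233; 3.86, 3.92, 3.17 and 3.89). The lost region with the highest -log10 q, 12.6, was also in *Kdm4b*, chr17:56344063-56344392, with 2.67, 2.23 and 2.42 and no peak in untreated cells.

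For *Dnmt3l*, an intronic region of *Aire* (chr10:78031628-78032188) had the largest upward shift, 21.2 points after 8 h Activin, with 2.12, 1.95, 2.60 and 2.30. A region 29.6 kb downstream, chr10:78084647-78085151, had 1.93, 2.08 and 2.37 in the last 3 lists and no peak under the inhibitor. The lost chr10:78090328-78090546 had 2.06 with SB-431542 alone. The strongest region, chr10:78067243-78067679, stayed at 4.95, 4.77, 4.64 and 5.14.

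**Figure D5:**
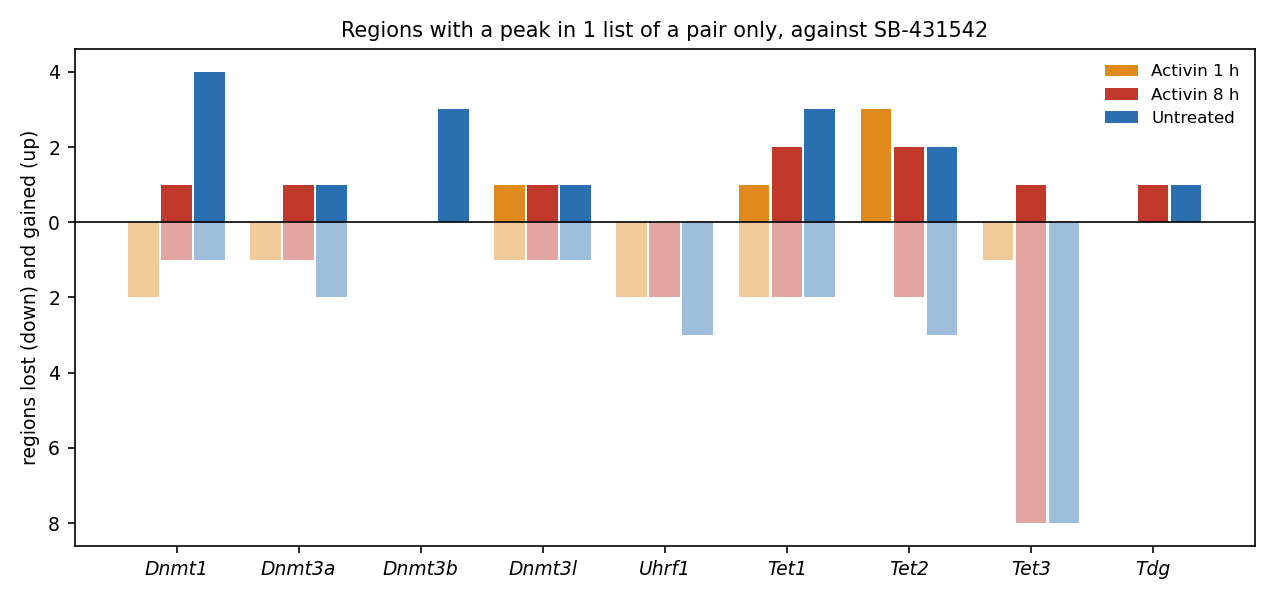
Number of regions at each gene that were gained (full colour, upward) and lost (pale colour, downward) against SB-431542, with 1 bar per state. *Tet3* has 8 lost regions after 8 h Activin and 8 in untreated cells, no other gene has more than 3, and *Dnmt3b* and *Tdg* have none.

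Many of these regions can belong to other genes. Of the 155, 85 had a member start site as their nearest start site and 64 lay inside the body of their member gene. By gene, a member start site was the nearest for 20 of 20 regions at *Tet2* and 24 of 34 at *Dnmt3a* but 2 of 16 at *Uhrf1*. The 14 shared regions over start sites of other genes within the window shifted little, with 0 higher in any state and 1 lower after 8 h Activin and 1 in untreated cells. By comparison, 85 shared ones lay over no start site, of which 17 were higher and 17 lower after 8 h Activin and 19 and 18 in untreated cells. The series held 146964 shared regions over no start site. Of these, 29806 were higher and 28975 lower after 8 h Activin, and 31774 and 29355 in untreated cells. Promoter regions thus passed the shift threshold less often than other regions in the whole series too. They were also stronger under the inhibitor, with a median fold enrichment of 4.47 against 2.55 over the series. Within the window the medians were 4.72 for the 14 regions and 3.15 for the 85. Strong peaks move by fewer points on this scale, so these counts cannot show whether promoters changed less than other regions. The window edge decided some membership. At *Dnmt3a* the farthest peak inside, 45.2 kb from a start site, belonged to the *Dtnb* region described above, and the nearest outside, at 50.2 kb, to a region with 5.02, 4.18, 5.03 and 3.68.

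The promoters of 32 other genes of the pathway were read in the same way. A peak over a start site in every list was found for 31 of them, all but *Dppa3*, in 34 regions with fold enrichments from 2.40 to 7.57 with SB-431542. After 1 h Activin 3 of the 34 were higher and 1 lower, after 8 h Activin 2 and 2, and in untreated cells 1 and 1, which is 8.82% and 2.94%, 5.88% and 5.88%, and 2.94% and 2.94%. These shares stand beside 3.11% and 2.29%, 3.32% and 6.51%, and 3.64% and 7.39% over all shared promoter regions, where most promoters also stayed within 10 points. All 7 promoters of methyl-CpG readers, such as *Mbd3*, and all 5 of maintenance and imprint factors with a peak, such as *Trim28*, stayed within 10 points. The reader promoters had 4.93 to 7.57 with SB-431542, where a change moves a region by few points. *Zbtb38* had 7.42 with SB-431542 and 6.12 in untreated cells, a shift of only -1.85 points.

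Among the others, *Gadd45g*, of a family linked to demethylation and repair, had 2.58, 2.77, 3.01 and 2.74, the largest upward shift after 1 h Activin (11.7 points) and after 8 h Activin (14.3). *Ogt*, the O-GlcNAc transferase that binds TET proteins, had 2.75, 2.92, 2.82 and 3.76 and the largest one in untreated cells, 24.7 points. A start site region of *Kdm2b*, which encodes a CXXC protein that binds unmethylated CpG islands, had 2.86, 2.20, 2.40 and 3.09, with the largest downward shift after 1 h Activin, -18.0 points. *Cxxc5* had the largest downward shift in the other states at its downstream start, -14.3 and -13.2 points, with 3.58, 3.20, 2.85 and 2.88. Beside these, *Kmt2a* (10.9 points) and *Ogt* were past 10 points higher after 1 h Activin, and *Kdm2b* was also lower after 8 h Activin (-13.8). The *Kdm2b* region also covers the start of *A930024E05Rik*.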

How the data were processed

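ATAC-seq of P19 cells in 4 signalling states was analysed from the authors' broad peak lists, 1 per state. The labels list 48 libraries, 12 per state, from 2 biological replicates, which the authors merged. Per the study's methods and processing notes, reads were trimmed (cutadapt 1.9.1), aligned to mm10 (BWA 0.6.2), marked for duplicates (Picard) and filtered, and peaks were called on the merged samples with MACS2 2.1.1.20160309 in broad mode, with reads shifted and extended around the transposase cut and no control sample named. The deposited fold enrichment is a ratio of pileup to local background, and the deposited -log10 p-value and -log10 q-value come from a Poisson test of the peak within its sample, not between states. A display score that the authors' lists also carry was not used.

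Peaks were assigned to start sites of 45756 curated RefSeq transcripts of 26180 genes (GRCm38) with Python 3.11.15, numpy 2.4.6, pandas 2.3.3 and scipy 1.17.1, and annotated by their centre. Pileup and background were estimated from fold enrichment and -log10 p, assuming the pseudocount of 1 that MACS2 adds. These inputs are means over a whole peak, and the accuracy of the estimates for wide, uneven peaks was not tested. Of 18 start sites, 16 matched the RefSeq promoter table, base for base with the genome. Members, lists, motifs and thresholds were chosen with earlier results of these data known. Regions named are those over a member start site, the largest upward and downward shift, the gained and lost region with the highest -log10 q, the region with the highest fold enrichment in any list, and, for other pathway genes, the largest shift each way per state; the remaining regions named at *Tet3*, *Dnmt3a* and *Dnmt3b* were chosen after their values were seen. Alternatives were a -log10 q of at least 5, lists of equal length, joining within 200 bp, a 50% overlap, a width-weighted mean, -log10 q or estimated pileup in place of fold enrichment, a window of 10 kb and, added after the data were seen, the peak that covers the start site.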

Additional observations from a re-analysis of the deposited data

Results flagged for a closer look

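At 6 of the 111 shared member regions the shift against SB-431542 was past 10 percentile points upward in 1 state and downward in another. The share of all shared regions of the series with such shifts was not computed, so this count has no background beside it. Each state is 1 merged list, so whether the states differ was not tested. 3 of the regions are at *Dnmt3a*. At chr12:3815498-3815856 the shifts were 13.1 points after 1 h Activin, 13.9 after 8 h Activin and -10.8 in untreated cells. At chr12:3823083-3824176 they were 18.2, -12.2 and -22.5 points in the same order. At chr12:3852576-3853003 they were -14.4 points after 1 h Activin and 12.0 in untreated cells.

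At *Tet1*, chr10:62896724-62898415 shifted by -14.4 points after 1 h Activin and by 14.1 after 8 h Activin. At *Tet3*, chr6:83478229-83479028 shifted by -16.9 points after 8 h Activin and by 13.7 in untreated cells. The widest of them, near *Tdg* in an intron of *Glt8d2* (chr10:82652362-82653273), shifted by -36.5 points after 1 h Activin, 13.9 after 8 h Activin and 19.4 in untreated cells.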

How the results depend on the processing

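Of the counts of member regions recomputed under the alternatives, 68 stayed within 1.5 times the value reported and 25 did not. Of these 25, 12 were from the window of 10 kb, where counts fall because fewer regions are included. With peaks of -log10 q of at least 5 only, 2 regions were gained and 19 lost after 1 h Activin, 0 promoter regions shifted after 1 h, and 11 regions were higher after 8 h. With -log10 q in place of fold enrichment, 5 regions were higher after 1 h. With the estimated pileup in its place, 2 were higher after 1 h, 12 lower after 8 h, 13 lower in untreated cells, and 1 promoter region shifted in untreated cells. Within 10 kb, the regions after 1 h, after 8 h and in untreated cells numbered 2, 4 and 3 higher, 2, 5 and 8 lower, 0, 1 and 4 gained, and 2, 3 and 1 lost. With a 50% overlap, 9, 14 and 23 were gained and, after 1 h, 15 lost. The shares over the whole series were not recomputed under the alternatives, so these counts have no background beside them.

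Of the promoter shifts, 314 moved little, 10 moved and 1 reversed. The reversal was at the short-form start of *Dnmt3a* in untreated cells, 24.0 points as reported and -13.6 for the peak that covers the start site, an alternative added after the data were seen. For the internal *Tet3* start the estimated pileup gave 0.274 points after 8 h Activin and 1.04 in untreated cells, -log10 q gave 6.16 and 6.63, and the stricter peaks gave 39.0 and 36.8. The stricter peaks gave no value for the *Dnmt3l* start at 78049842, which stayed past 10 points in the other alternatives. No paired analysis was possible because the replicates of a state were merged before peaks were called, and for the same reason no replicate could be left out. The lists give no read counts, so depth limits weak peaks by an amount that is not known.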
